A study of Mus musculus with 21 samples.

Results

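The genes described are 46 non-collagen components and makers of the extracellular matrix, chosen by symbol among the 20634 genes that both deposited count tables hold. They are fibronectin and matricellular proteins (6 genes), elastic fibre and microfibril proteins (11), latent TGF-beta binding proteins (4), proteoglycans (7), basement membrane proteins (11) and enzymes or enhancers of collagen and elastin processing (7). Their mRNA was measured by RNA-seq in kidneys of female apoE knockout mice (apoEKO on C57BL/6J background), which were 4 weeks old when the diets began and 18 weeks old after 14 weeks of feeding. The Con group (5 mice) was fed standard chow, the Ade group (6 mice) a diet with adenine, which injures the kidney tubules, and the Ade + IMC group (6 mice) the adenine diet with iodomethylcholine (IMC), an inhibitor of the formation of trimethylamine by gut bacteria. All 17 mice lack functional apoE, so no group shows what the diets do in a mouse with an intact gene. 4 further mice labelled control plus IMC were not analysed here.

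In a scarring kidney, fibroblasts and pericytes lay down a matrix of collagen fibrils, fibronectin and elastic fibres between the tubules. Microfibrils of fibrillin carry elastin, hold latent TGF-beta through its binding proteins and are tied to other proteins by fibulins. Small leucine-rich proteoglycans sit on collagen fibrils, and lysyl oxidases join collagen and elastin chains covalently. Basement membranes, which tubules and capillaries rest on, are sheets of laminin, nidogen and perlecan with type IV collagen.

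The total count per mouse was between 7716126 and 11680809 in the Con group, between 5444833 and 7673215 in the Ade group and between 5728589 and 8305968 in the Ade + IMC group. Levels are given as CPM, a count relative to the total count of its mouse, scaled alike over the 17 separate mice. Before that scaling, 3 reads in the shallowest mouse correspond to 0.551 CPM. Kidney markers were present in each group, as shown by the lowest read counts of any mouse for Umod of the thick ascending limb (11890), Lrp2 of the proximal tubule (2970), Nphs1 of the podocyte (84) and Aqp2 of the collecting duct (442). Havcr1, a marker of injured proximal tubule, had 1 to 7 reads in the Con mice and 192 to 2104 in mice fed adenine. Apoe had 47 to 214 reads, so the disrupted gene still gave some counted RNA. The summed level of 8 proximal tubule markers was between 11023 and 16508 CPM in the Con mice, between 1784 and 6747 CPM in the Ade mice and between 2839 and 5630 CPM in the Ade + IMC mice. Conversely, 8 fibroblast and pericyte markers summed to 255 to 322 CPM in the Con mice, 392 to 603 CPM in the Ade mice and 456 to 759 CPM in the Ade + IMC mice, and 8 macrophage markers to 215 to 256, 1450 to 2376 and 1311 to 2210 CPM. Markers of T and B cells (7.08 to 11.9 CPM in Con, 50.8 to 228 in Ade, 55.4 to 406 in Ade + IMC) and contractile cells (343 to 411, 487 to 617 and 370 to 825) also moved, those of endothelium (540 to 846, 380 to 700 and 451 to 872) and of the loop, distal tubule and collecting duct (7921 to 12063, 3851 to 7951 and 6286 to 10272) were lower in part, and adipocyte markers reached 434 CPM in Ade + IMC mouse 212 against 0.404 to 12.6 CPM in Con. In RNA from whole tissue, more cells of a type and more RNA per cell cannot be told apart, and the part of these marker shifts in the results below was not tested.

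RefSeq gave promoters for 29 of the 46 genes, 39 start sites in all, read over the 250 bases before each start site. 3 are printed, chosen after the values were known, because their genes carry the main results, namely Ltbp2 with the largest rise, Loxl4 with the largest fall and Bgn, the proteoglycan with the highest level per kilobase. Bases inside the annotated gene were left out. The build is GRCm38.p6, all run 5′ to 3′ on the strand of the gene, and capitals mark the GC box, GGGCGG on either strand, to which SP1 binds.

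Ltbp2, minus strand, chr12:84876533-84876741: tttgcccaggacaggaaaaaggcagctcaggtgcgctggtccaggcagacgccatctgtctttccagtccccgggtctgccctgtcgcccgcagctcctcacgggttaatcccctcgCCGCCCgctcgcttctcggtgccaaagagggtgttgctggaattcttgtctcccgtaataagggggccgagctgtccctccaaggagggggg
Loxl4, minus strand, chr19:42612814-42613056: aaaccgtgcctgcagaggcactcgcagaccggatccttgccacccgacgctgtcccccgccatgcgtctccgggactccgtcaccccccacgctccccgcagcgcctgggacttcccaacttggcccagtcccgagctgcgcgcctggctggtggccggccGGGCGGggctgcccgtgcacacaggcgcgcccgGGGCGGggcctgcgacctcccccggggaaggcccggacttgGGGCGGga
Bgn, plus strand, chrX:73483351-73483600: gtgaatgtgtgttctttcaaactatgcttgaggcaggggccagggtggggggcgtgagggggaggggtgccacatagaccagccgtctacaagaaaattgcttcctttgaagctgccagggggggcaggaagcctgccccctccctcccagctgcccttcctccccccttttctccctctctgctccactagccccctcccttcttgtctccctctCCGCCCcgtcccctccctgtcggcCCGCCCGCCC

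The GC box lay in 23 of the 39 promoters (59.0%), against 32.7% of all 32851 RefSeq promoters over the same length. In the printed stretches Loxl4, which fell, held 3 GC boxes, as did Bgn, which rose and where the last 2 boxes overlap, while Ltbp2 held 1. The letters TATAAA, the TATA box, were in 5 member promoters (12.8%, against 12.4% of all), and CAGACA, bound by SMAD proteins, in 10 (25.6%, against 17.1%). GGAATG, bound by TEAD factors, was in 3 (7.69%, against 12.6%) and TGAGTCA, bound by AP-1, in 0 of 39 (against 4.46%). Each motif was searched on both strands, and a match is a string of letters and not evidence of binding.

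The first question was which of these genes differ between kidneys of mice fed adenine and control kidneys. Of the 46 genes, 34 rose in the Ade group, 3 fell and 9 were not called (edgeR's quasi-likelihood test, adjusted p below 0.1). With an unadjusted p below 0.05, 31 were higher and 2 lower, against 4951 and 4531 of the 14612 genes tested. For Fbln5, Ltbp1, Vcan and Pcolce, called by adjusted p, the 95% interval included 0 (unadjusted edgeR p between 0.0511 and 0.0664). The direction was thus mostly upward, whereas across the 14612 genes tested 35.1% rose and 32.2% fell. The counts by role given below stand against these same shares. The median log2 change was 1.04 for the 46 genes and 0.02 for all genes. Every Ade mouse lay above every Con mouse for 26 of the 46 genes and below for 1, against 22.4% and 20.6% of all genes tested. Exons of 19 of the 46 genes share bases with another gene, and since strand use in counting is not stated their values are less certain. The median over the 46 genes of the log2 difference from the Con mean was between -0.12 and 0.15 in the Con mice, between 0.99 and 1.38 in the Ade mice and between 0.77 and 1.46 in the Ade + IMC mice.

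**Figure D1:**
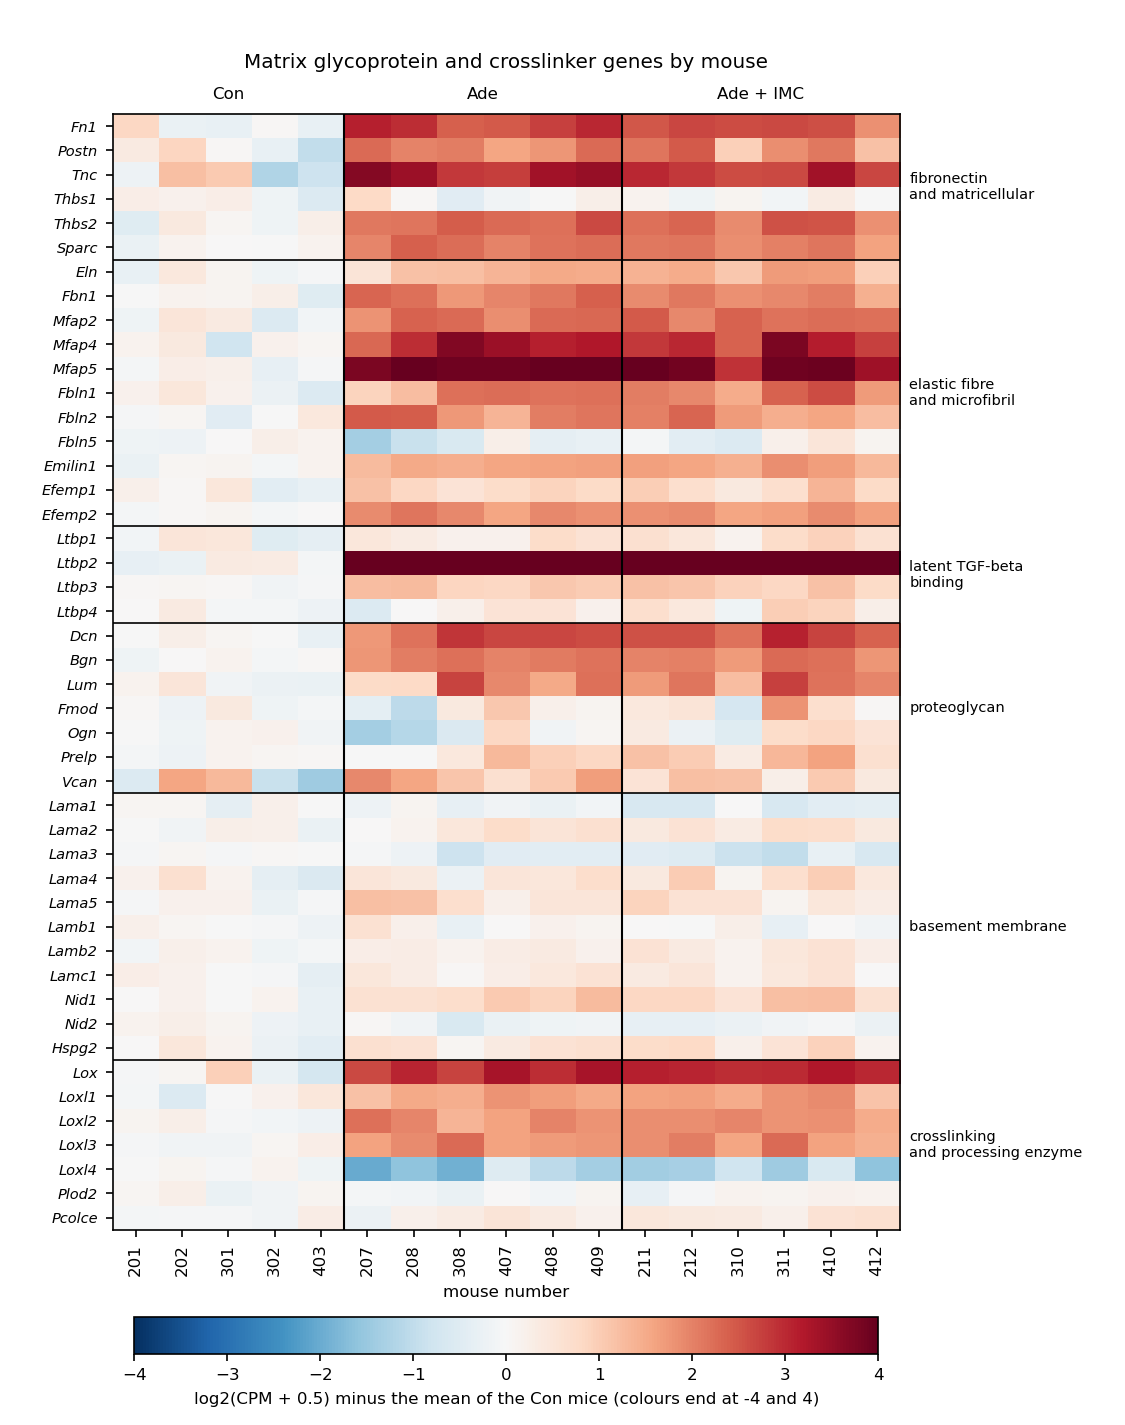
Each row is 1 of the 46 genes, grouped by role, and each column 1 mouse. Colour is log2(CPM + 0.5) minus the mean of the Con mice, with colours ending at -4 and 4. The red rows of Fn1, Tnc, Mfap4, Mfap5, Ltbp2, Dcn and Lox extend over all 12 mice fed adenine, while most basement membrane rows are pale and Loxl4 is blue.

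Fibronectin and the matricellular proteins, which modulate how cells hold the matrix, rose with the exception of 1 of 6. Fn1, fibronectin itself, measured 135, 62.7, 60.7, 77.7 and 60.8 CPM in the 5 Con mice, and 393 (lowest), 543 (median) and 656 (highest) in the Ade mice. The groups did not overlap, although mouse 201 stood apart among the Con mice. The log2 change of Fn1 was 2.76 ± 0.23 (SE, 6.75-fold, adjusted p = 4.61e-07 by edgeR). Tnc, tenascin-C, an anti-adhesive protein of wounds and scars, measured 19.9, 52.6, 47.4, 9.48 and 12.5 CPM in the Con mice and 157, 242 and 295 CPM (lowest, median, highest) in the Ade mice. The Con mice thus varied several times among themselves, yet all lay below the Ade mice, and Tnc rose by 3.02 ± 0.41 (8.14-fold, adjusted p = 3e-05). Sparc, a collagen-binding glycoprotein, went from 148 to 198 CPM in the Con mice to 691 to 934 CPM in the Ade mice, a log2 change of 2.19 ± 0.12 (adjusted p = 1.57e-08). Thbs2 and Postn (thrombospondin 2 and periostin) rose by 2.35 ± 0.16 and 1.98 ± 0.26 on the log2 scale. Thbs1, which like Thbs2 encodes a thrombospondin, was not called (132 to 234 CPM in Con, 140 to 333 CPM in Ade, adjusted p = 0.638).

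Among the 11 elastic fibre and microfibril genes 10 rose and 1 fell. The microfibril-associated glycoproteins led the group. Mfap5 was barely counted in control kidneys, with 6 to 10 reads and 0.779 to 1.44 CPM per Con mouse, and it reached 21.5 to 30.1 CPM in the Ade mice (log2 change 4.52 ± 0.17, 23.0-fold, adjusted p = 9.63e-10). Mfap4, which binds elastic fibres, rose from 1.49 to 4.04 CPM to 16.5 to 44.1 CPM (3.33 ± 0.27, 10.04-fold). Neither gene overlapped between groups. Mfap2 and the microfibril scaffold Fbn1, fibrillin-1, rose by 2.37 ± 0.22 and 2.17 ± 0.15, and elastin itself, Eln, by 1.29 ± 0.18 (2.44-fold). Of the fibulins, which bridge elastin and microfibrils, Fbln2 (2.14 ± 0.21), Efemp2 (1.95 ± 0.11), Fbln1 (1.93 ± 0.27) and Efemp1 (0.84 ± 0.15) rose, as did Emilin1 (1.55 ± 0.10), a glycoprotein of the elastin and microfibril interface.

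Fbln5, fibulin-5, needed for the assembly of elastic fibres, moved the other way. It measured 109, 106, 124, 146 and 136 CPM in the Con mice and 47.8, 65.9, 79.9, 144, 96.1 and 99.6 CPM in the Ade mice 207, 208, 308, 407, 408 and 409, so mouse 407 lay within the Con range and the other 5 below it. The log2 change was -0.46 ± 0.21 (adjusted p = 0.0787), and it was no longer called when any of 6 mice was left out (Con 301, 302 or 403, or Ade 207, 208 or 308), with adjusted p between 0.114 and 0.162. With upper-quartile scaling in edgeR it was -0.40 and not called (adjusted p = 0.107).

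The latent TGF-beta binding proteins bind the inactive TGF-beta complex, aid its secretion by cells and fix it to microfibrils, except LTBP2, which binds fibrillin and does not carry latent TGF-beta. Ltbp2 changed more than any other of the 46 genes. The 5 Con mice had 6 to 12 reads and 0.807 to 1.63 CPM, and the Ade mice 159, 153, 141, 77.6, 111 and 153 CPM. Its log2 change was 6.83 ± 0.26 (114-fold, adjusted p = 1.18e-09). Among the 8184 exonic bases of Ltbp2 (chr12:84783212-84876532), 764 are shared with D030025P21Rik on the opposite strand. Ltbp3 rose by 1.09 ± 0.10 (71.2 to 83.5 CPM in Con, 140 to 188 CPM in Ade). Ltbp1, whose groups overlapped (28.7 to 56.5 and 45.1 to 67.1 CPM), rose by 0.39 ± 0.18 (adjusted p = 0.0786) but was not called without Con mouse 201, 302 or 403 or Ade mouse 408 or 409 (adjusted p between 0.128 and 0.195), nor with the leading digit of the mice's numbers as a block (its meaning is not stated; adjusted p = 0.129). The Ltbp1 call was also lost with DESeq2 (adjusted p = 0.1135) and in edgeR without a filter (0.1001). Ltbp4 was not called (96.6 to 141 CPM in Con, 75.5 to 161 CPM in Ade, adjusted p = 0.308).

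**Figure D2:**
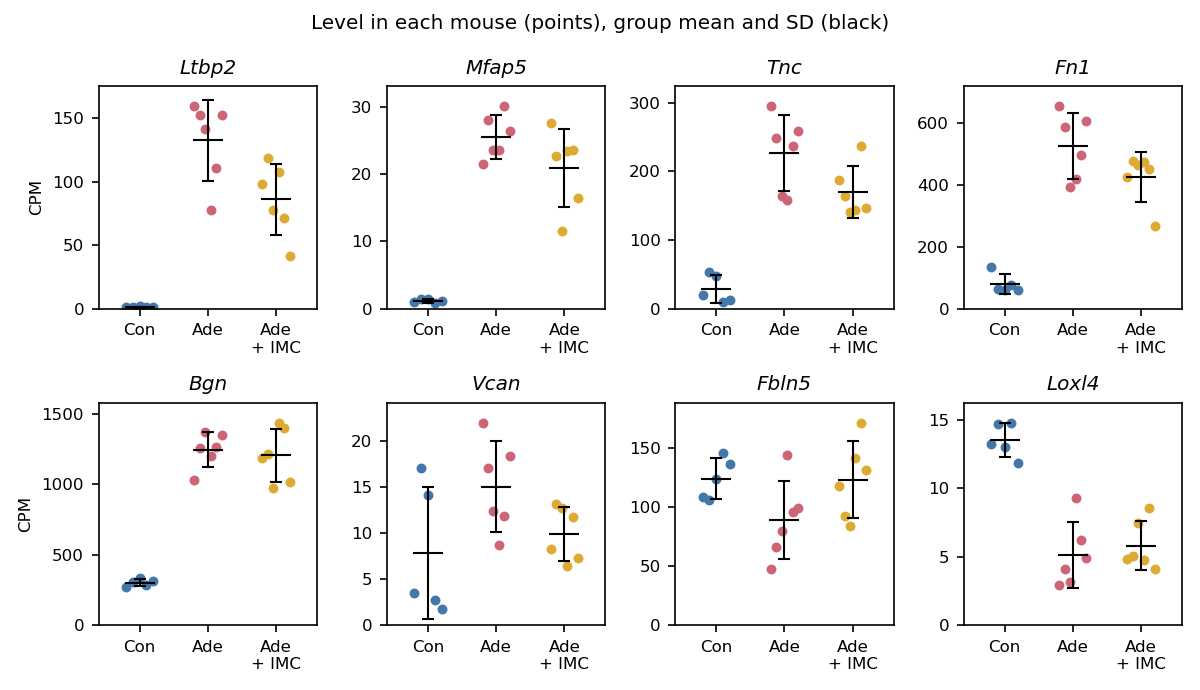
CPM (linear axes from 0) of 8 genes in each mouse, with the group mean and SD in black. Ltbp2, Mfap5, Tnc, Fn1 and Bgn are higher in every mouse fed adenine than in any Con mouse and Loxl4 is lower, while Vcan and Fbln5 overlap between groups.

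Of the 7 proteoglycan genes 5 rose and 2 were not called. Bgn, biglycan, measured 268, 305, 334, 285 and 313 CPM in the Con mice and 1032, 1259 and 1372 CPM (lowest, median, highest) in the Ade mice, an increase of 2.07 ± 0.11 on the log2 scale (4.203-fold, adjusted p = 1.50e-08). Dcn, decorin, which binds collagen and TGF-beta, rose from 32.1 to 47.4 CPM to 133 to 294 CPM (2.53 ± 0.19, 5.76-fold). Lum, lumican, a regulator of fibril thickness, rose by 1.94 ± 0.37, with 6.74 and 6.82 CPM in the Ade mice 207 and 208 and 27.4 CPM in mouse 308. Prelp, which links basement membrane to connective tissue, rose by 0.68 ± 0.21 (adjusted p = 0.0132), but its groups overlapped (38.1 to 49.0 and 43.7 to 110 CPM).

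Fmod and Ogn (fibromodulin and osteoglycin), which belong to the same leucine-rich family, were not called, and their Ade values spread on both sides of the Con range. Fmod measured 12.9 to 19.4 CPM in the Con mice, 6.82 CPM in Ade mouse 208 and 31.9 CPM in Ade mouse 407. Ogn measured 27.9 to 35.8 CPM in the Con mice, 12.1 and 14.1 CPM in the Ade mice 207 and 208 and 56.1 CPM in mouse 407. The same Ade mice differed in cell markers, since 6 tubular injury markers summed to 1560 and 1555 CPM in mice 207 and 208 and 517 CPM in mouse 407, and 6 podocyte markers to 288, 524 and 992 CPM; the part of these shifts was not tested.

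Vcan, versican, a large proteoglycan that binds hyaluronan, measured 3.53, 17.04, 14.1, 2.73 and 1.70 CPM in the Con mice and 8.66, 14.7 and 21.99 CPM (lowest, median, highest) in the Ade mice. The Con mice 202 and 301 thus lay at the Ade level. The log2 change of 0.99 ± 0.50 (adjusted p = 0.0988) was no longer called when any of 8 mice was left out (Con 201, 302 or 403, or Ade 207, 208, 308, 408 or 409; adjusted p between 0.103 and 0.213) or with DESeq2 (adjusted p = 0.187). The mice with high Vcan among the controls also had the highest Tnc. The summed level of 6 urothelium markers, of which 4 rose in the Ade group, was 18.2, 28.6, 15.3, 2.08 and 3.66 CPM in the 5 Con mice in the same order and 14.9 to 167 CPM in the Ade mice, and its part in Vcan and Tnc was not tested.

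The basement membrane genes changed least, with 6 of 11 higher, 1 lower and 4 not called, and a median log2 change of 0.36. Lama5, the alpha chain of the main laminin of tubules and glomeruli, rose by 0.76 ± 0.18 (237 to 320 CPM in Con, 323 to 653 CPM in Ade, adjusted p = 0.00239), and Nid1, nidogen-1, which joins laminin to type IV collagen, by 0.89 ± 0.13 (64.8 to 89.4 and 121 to 193 CPM). Only for these did the 2 groups not overlap. Hspg2 (perlecan, 0.49 ± 0.15), Lama2 (0.46 ± 0.14), Lamc1 (0.36 ± 0.11) and Lamb2 (0.27 ± 0.08) rose by smaller amounts. Lama3, a laminin chain of epithelia, fell by 0.36 on the log2 scale (35.0 to 38.7 CPM in Con, 20.2 to 35.1 CPM in Ade, SE 0.11, adjusted p = 0.0132). Lama1, Lama4, Lamb1 and Nid2 were not called (adjusted p between 0.131 and 0.312).

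Of the 7 genes for crosslinking and processing 5 rose, 1 fell and 1 was not called. Lox, lysyl oxidase, measured 7.37, 8.09, 15.0, 6.23 and 4.44 CPM in the Con mice and 50.1, 64.2 and 79.5 CPM (lowest, median, highest) in the Ade mice, with no overlap and a log2 change of 3.004 ± 0.25 (8.02-fold, adjusted p = 3.74e-07). The related oxidases Loxl2 (2.002 ± 0.18), Loxl3 (1.93 ± 0.15) and Loxl1 (1.55 ± 0.16) rose as well, each without overlap. Loxl4, of the same family, fell. It measured 13.2, 14.7, 13.0, 14.8 and 11.9 CPM in the Con mice and 2.92, 4.09, 3.17, 9.33, 6.24 and 4.90 CPM in the Ade mice, a log2 change of -1.38 ± 0.24 (adjusted p = 0.000274), and was the 1 gene of the 46 for which every Ade mouse lay below every Con mouse. Pcolce, an enhancer of procollagen processing, rose by 0.26 ± 0.12 (105 to 141 and 97.9 to 164 CPM, adjusted p = 0.0831), but the call was lost in 7 of the 11 fits that left out 1 mouse (Con 201, 202, 301 or 302, or Ade 308, 407 or 408; adjusted p between 0.129 and 0.181) and with the block (adjusted p = 0.152). The Pcolce call was also lost with DESeq2 (adjusted p = 0.148), and in edgeR with median of ratios scaling (0.114) or no filter (0.129). With the block on title digits described at the end, its log2 change was 0.13 (adjusted p = 0.456 by edgeR). Plod2, which hydroxylates lysines of collagen for crosslinks, was not called (57.6 to 80.7 and 57.5 to 75.1 CPM).

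Since relatives moved by unequal amounts, the make-up of gene families differed between groups. Per kilobase of exon, the 5 lysyl oxidases summed to 12.6 ± 1.20 CPM per kb (SD, n = 5) in the Con mice and 38.6 ± 4.74 in the Ade mice (n = 6). Lox made up 13.7% ± 6.25 of this sum in the Con mice and 35.0% ± 3.34 in the Ade mice, and Loxl4 25.8% ± 4.38 and 3.05% ± 1.07, whereas Loxl1 held 46.5% ± 8.42 and 44.1% ± 2.28. Ltbp2 went from 0.494% ± 0.187 of the latent TGF-beta binding protein mRNA to 27.4% ± 6.43, while Ltbp4 went from 57.5% ± 2.90 to 33.4% ± 8.89. Bgn was the most abundant leucine-rich proteoglycan in all groups, at 56.8% ± 2.34, 72.4% ± 5.86 and 67.4% ± 2.996 in Con, Ade and Ade + IMC. Fbln5 and Efemp1 held like shares of the fibulin sum in the Con mice (41.5% ± 7.57 and 40.6% ± 7.12), and in the Ade mice Fbln5 held 17.1% ± 5.73 and Efemp1 42.3% ± 6.81. Lama5 was the main laminin alpha chain throughout (74.2% ± 2.76 in Con, 82.4% ± 4.34 in Ade). In order of level per kilobase, Bgn and Sparc led the 46 genes in Con (49.3 and 47.4 CPM per kb), Ade (204 and 213) and Ade + IMC (197 and 188), while Ltbp2 was last of 46 in the Con mice and 20th of 46 in the Ade mice.

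**Figure D3:**
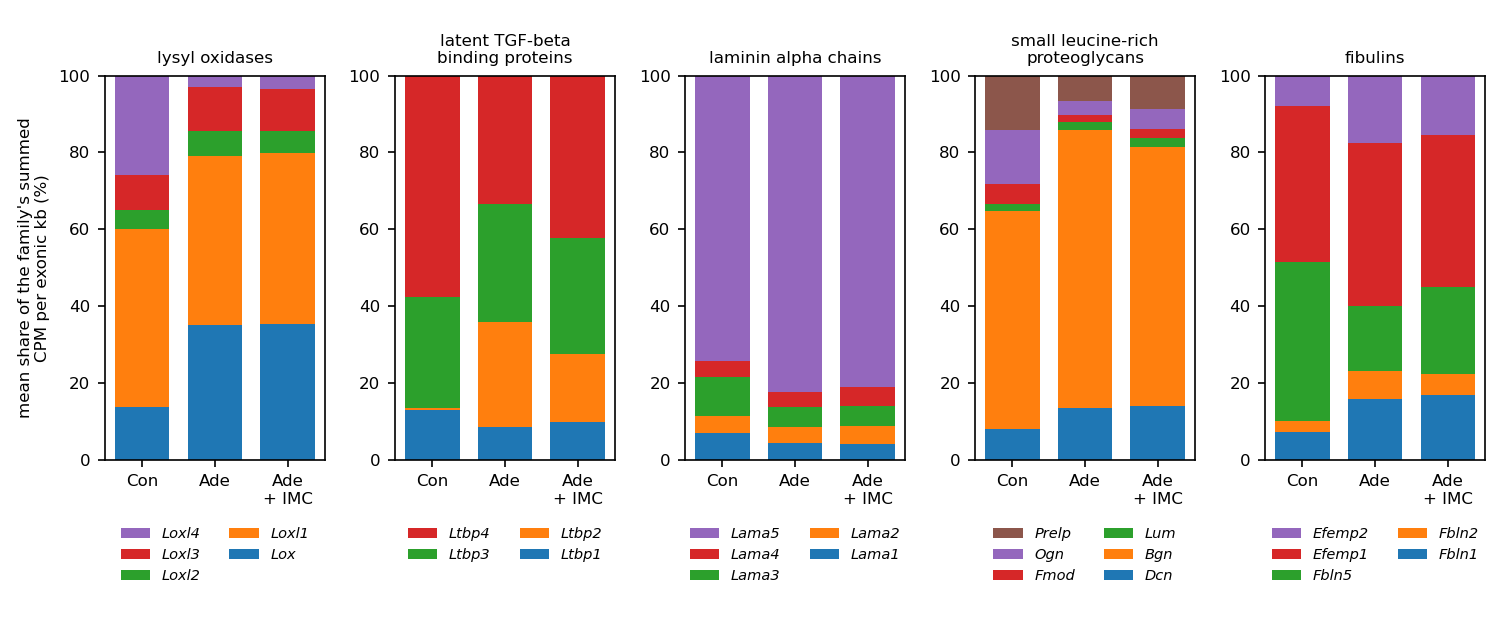
Mean share (%) of each gene in the summed CPM per exonic kilobase of its family, for the Con, Ade and Ade + IMC groups. Lox takes a larger and Loxl4 a smaller share with adenine, Ltbp2 goes from 0.494% to 27.4% of its family, and the Ade and Ade + IMC bars are close to each other for the oxidases and the laminin alpha chains.

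Ratios of 2 genes within a mouse do not depend on the scaling between mice. 12 pairs of related genes were compared in both Ade against Con and Ade + IMC against Ade, and p-values were adjusted over these 24 exact permutation tests (two-sided, smallest possible p of 0.00433 with 6 against 5 mice). In Ade against Con 11 of 12 pairs passed an adjusted p of 0.1. The pairs join genes whose changes are described above, and no rate over other pairs of genes was computed. The count of pairs that passed is therefore a description and not independent support. The ratio of Ltbp2 to Ltbp4 rose by 6.59 on the log2 scale, that of Fbln2 to Fbln5 by 2.64 and that of Mfap5 to Mfap2 by 2.09. The ratio of Thbs1 to Thbs2 fell by 2.26, of Fmod to Lum by 1.71, of Loxl1 to Lox by 1.52, of Nid2 to Nid1 by 1.07 and of Eln to Fbn1 by 0.91. For these 8 pairs the groups did not overlap (exact permutation p = 0.00433, adjusted p = 0.0130 each). Loxl2 to Lox (fell by 1.12) and Lama1 to Lama5 (fell by 0.86) passed with overlap (adjusted p = 0.0416 and 0.0231 by the exact permutation test). Bgn to Dcn fell by 0.42 (adjusted exact permutation p = 0.0839), which was lost in 7 of the 11 tests without 1 mouse (Con 301, 302 or 403, or Ade 308, 407, 408 or 409; adjusted p between 0.114 and 0.152) and in a permutation among mice of like leading digit (adjusted p = 0.143). The 1 pair that did not pass was Lamb1 to Lamb2 (-0.12, exact permutation adjusted p = 0.589).

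**Figure D4:**
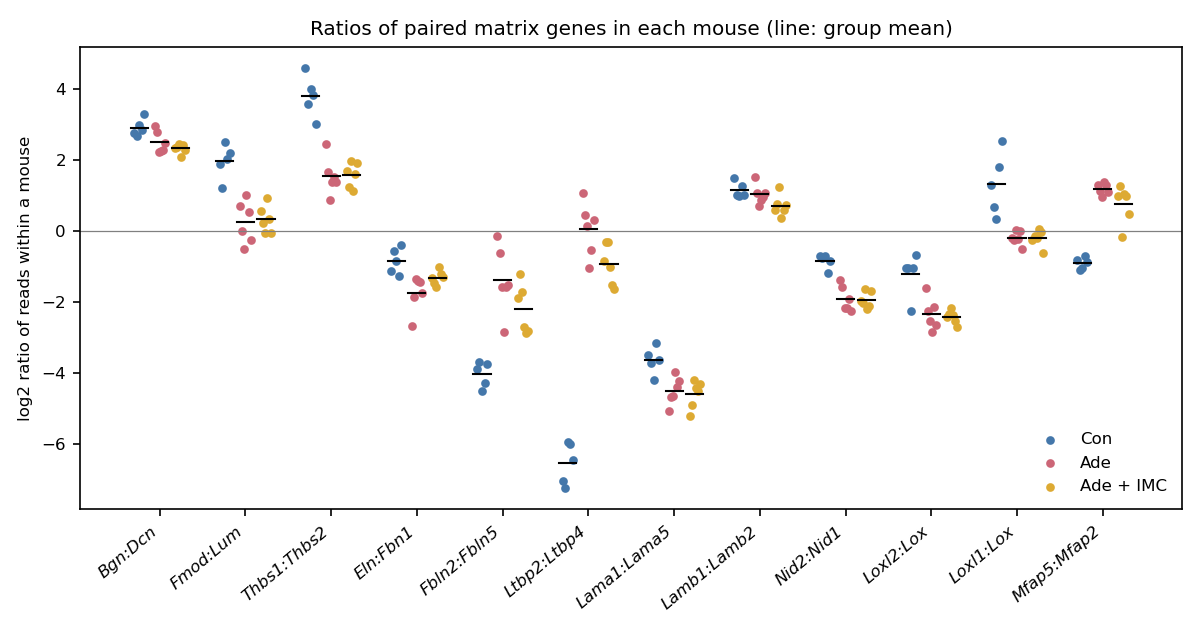
Log2 ratio of the reads of paired genes within each mouse (vertical axis) for 12 pairs (horizontal axis), with the group mean as a line. The Con points of Thbs1:Thbs2, Fbln2:Fbln5, Ltbp2:Ltbp4 and Mfap5:Mfap2 lie apart from those of mice fed adenine, and the Ade and Ade + IMC points overlap for every pair.

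The next question was whether IMC altered these genes in mice fed adenine. None of the 46 genes was called between Ade + IMC and Ade (limma on log2(normalized count + 1), adjusted p below 0.1), and neither was any of the 14696 genes tested (0%). Over all genes edgeR on recovered reads called 0 as well, DESeq2 21 higher and 16 lower, and limma with the leading digit as a block 73 higher and 60 lower, with 0 of the 46 genes among them. With an unadjusted p below 0.05, 4 of the 46 genes were lower and 0 higher, against 3.35% lower and 3.37% higher of all genes tested. With the leading digit as a block, 6 were lower (Ltbp2, Tnc, Vcan, Lama1, Fbln2 and Lama5) and 4 higher (Fbln5, Ogn, Prelp and Pcolce), where the same block gave 6.26% lower and 7.4% higher of all genes tested. The median log2 difference of the 46 genes was -0.02, with 24 negative and 22 positive (21 and 25 with the block), and was 0.01 over all genes. Of the 34 genes that rose in the Ade group, 19 had a negative and 15 a positive difference (17 and 17 with the block). For all 46 genes the groups overlapped. Some mice stood at the end of the range more often than others, since of the 12 mice fed adenine Ade mouse 207 had the highest value for 11 of the 46 genes and the lowest for 15, and Ade + IMC mouse 412 had the lowest for 10. Ade + IMC mouse 310 had the lowest for 8, while Ade + IMC mice 410 and 311 had the highest for 10 and 9. The summed tubular injury markers were between 517 and 1560 CPM in the Ade mice and between 414 and 919 CPM in the Ade + IMC mice (81.3 to 117 CPM in Con), and the part of this in the differences was not tested. The 95% interval of the difference lay within 1 log2 unit of 0 for 40 genes and reached further for Ltbp2, Vcan, Fbln5, Lum, Fmod and Ogn.

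Without the block, the 4 genes with an unadjusted p below 0.05 were Ltbp2, Lama1, Vcan and Tnc. Ltbp2 had normalized counts of 1186, 1148, 1064, 578, 820 and 1139 in the Ade mice and 735, 877, 576, 811, 522 and 305 in the Ade + IMC mice. All but 2 Ade mice (407 and 408) lay above every Ade + IMC mouse. The log2 difference was -0.67 (95% interval -1.20 to -0.14, adjusted p = 0.711 by limma), and with the leading digit as a block it was -0.77 (adjusted p = 0.109). Vcan had 64.4 to 164 normalized counts in the Ade and 48.5 to 97.5 in the Ade + IMC mice (-0.59, -1.11 to -0.07, adjusted p = 0.715). Tnc had 1172 to 2192 and 1039 to 1734 (-0.42, -0.78 to -0.05, adjusted p = 0.715). Lama1, a laminin alpha chain, had 135 to 185 and 106 to 170, with 5 of 6 Ade + IMC mice below all Ade mice (-0.32, -0.59 to -0.05, adjusted p = 0.711). Over the alternatives the adjusted p of these 4 genes was between 0.109 and 0.996, and DESeq2 and edgeR on recovered reads called 0 of the 46 genes as well.

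**Figure D5:**
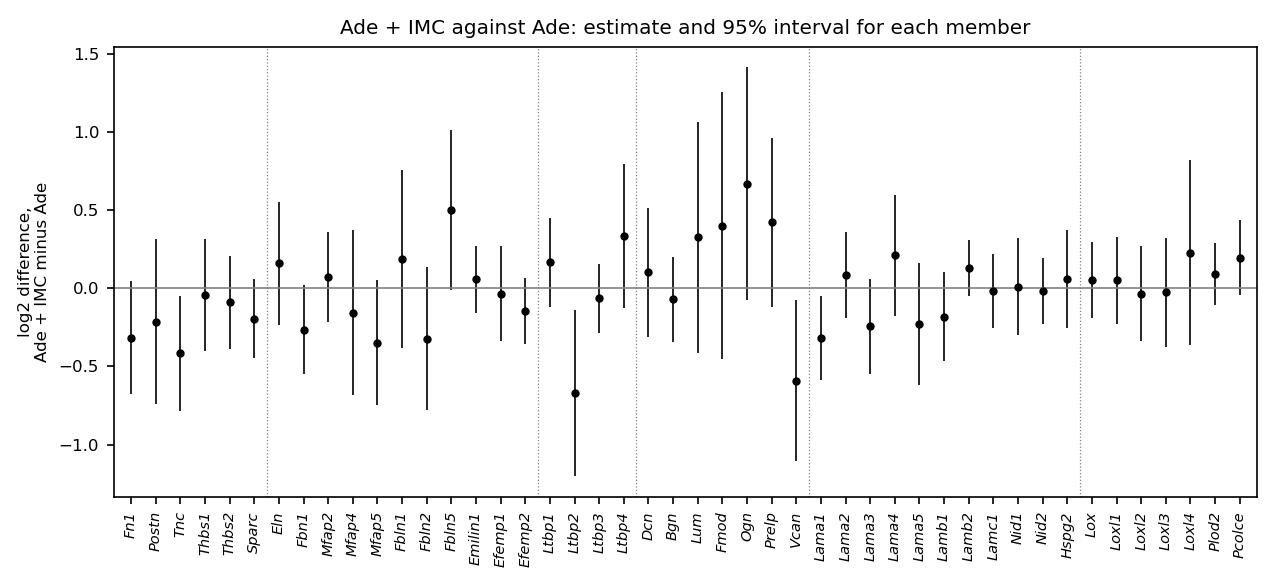
Log2 difference, Ade + IMC minus Ade, for each of the 46 genes (points) with its 95% interval (lines) from limma on log2(normalized count + 1). The points lie on both sides of 0, and the intervals of Ltbp2, Tnc, Vcan and Lama1 do not reach 0.

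Some ratios within a mouse differed between Ade + IMC and Ade. The ratio of Ltbp2 to Ltbp4 was 1.01 log2 units lower (-0.94 ± 0.57 against 0.06 ± 0.75, SD, n = 6 each, exact permutation p = 0.0303, adjusted p = 0.0661). Eln to Fbn1 was 0.43 higher and Mfap5 to Mfap2 lower by a difference of -0.42 (adjusted exact permutation p = 0.0839 and 0.0853). None of the 3 withstood leaving out each mouse in turn. The first was lost without Ade mouse 207, 208 or 409 or Ade + IMC mouse 410 or 412 (adjusted p of 0.112 to 0.121), and all 3 were lost without any 1 of these 5 mice. Eln to Fbn1 was also lost without Ade + IMC mouse 211 or 311, and without Ade mouse 207 its difference was 0.24. Mfap5 to Mfap2 was lost without any mouse other than Ade mouse 308 or Ade + IMC mouse 212, and without Ade + IMC mouse 310 its difference was -0.23. The Ltbp2 to Ltbp4 ratio held in an exact permutation among mice of like leading digit (adjusted p = 0.0333), the others did not (0.103 and 0.217). The other 9 pairs did not pass.

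Against the Con mice, the Ade + IMC group had 35 of the 46 genes higher and 4 lower (limma on log2 CPM, adjusted p below 0.1), where 30.9% of the 14578 genes tested were higher and 32.5% lower. The Con mice are the same as in the comparison with Ade. The 4 lower genes were Lama1, Lama3, Nid2 and Loxl4. Ltbp2 was 5.84 ± 0.25 higher on the log2 scale in Ade + IMC than in Con (57.3-fold, 41.6 to 118 CPM), Mfap5 3.87 ± 0.22 and Lox 3.07 ± 0.22. The prior count of 2 in this fit lowers the change of genes with few Con reads, such as Ltbp2 and Mfap5. These values are therefore not to be set against the edgeR changes of Ade against Con. The direct log2 differences between Ade + IMC and Ade were -0.67 for Ltbp2, -0.35 for Mfap5 and 0.05 for Lox, none of them called. Ltbp4 (0.47 ± 0.19) and Lama4 (0.58 ± 0.22) were called higher here and not in Ade against Con, and Lama1 (-0.49 ± 0.14) and Nid2 (-0.25 ± 0.11) were called lower. Vcan and Fbln5, called in Ade against Con, were not called here (adjusted p = 0.194 and 0.741). A call in 1 of these comparisons and not in the other does not show that Ade and Ade + IMC differ. With the block on title digits described at the end, which used fewer mice, Ltbp1, Ltbp4, Lama1, Lama4 and Nid2 were not called. Their adjusted p by limma was then between 0.106 and 0.249. Lama4 was not called without Con mouse 302 or 403 (adjusted p = 0.102 and 0.107), Lamc1 not without Con mouse 403 (0.137), and Nid2 not in 7 of the 11 fits without 1 mouse (Con 201, 202 or 301, or Ade + IMC 211, 212, 310 or 412; adjusted p of 0.1002 to 0.159) nor with the block (0.1001).

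In Ade against Con 18 of 22 collagen chain genes rose and 2 fell, with a median log2 change of 1.38. Counts of this and the following lists stand against the 35.1% higher and 32.2% lower of all genes tested. Col1a1 and Col3a1, the chains of the main fibril collagens, rose by 4.202 ± 0.13 and 4.13 ± 0.14, and Col4a3 and Col4a4 of the glomerular basement membrane changed by -1.35 ± 0.16 and -1.02 ± 0.17. Of 38 other matrix glycoproteins 24 rose and 6 fell, among them Dpt, dermatopontin (4.13 ± 0.24), and Fbn2, fibrillin-2, while Comp (-1.18 ± 0.34) and Ntn1 (-0.86 ± 0.13) fell. Fbn2 had at most 4 reads in any Con mouse (0.214 ± 0.151 CPM, SD, n = 5), so its fitted log2 change of 6.09 ± 0.37 rests on a control level near the floor of 3 reads, and it reached 16.2 ± 4.61 CPM in the Ade mice. Among 20 other collagen-processing enzymes 13 rose and 6 fell. Adamts2, which removes the amino propeptide of procollagen, rose by 3.20 ± 0.10 and Bmp1, which removes the carboxy propeptide and acts with Pcolce, by 1.81 ± 0.13, whereas P3h2 (-1.45 ± 0.14) and Tll1 (-1.16 ± 0.40) fell. Of 29 matrix receptors 19 rose and 6 fell, with the hyaluronan receptors Cd44 (4.45 ± 0.20) and Hmmr (3.08 ± 0.33, at most 11 reads in any Con mouse) rising most and Itgb8 (-2.01 ± 0.27) and Cd36 (-1.49 ± 0.18) falling most. Of 7 other proteoglycans 3 rose (most of all Podnl1, 3.53 ± 0.30 with at most 5 reads in any Con mouse, and Srgn, 1.02 ± 0.19) and 3 fell (most of all Hapln1, -1.74 ± 0.53, and Aspn, -0.81 ± 0.33), with no prevailing direction. Hapln1 stood at 0.687 ± 0.674 CPM (SD) in the Ade mice, near the floor of 3 reads. Between Ade + IMC and Ade 0 genes of any of these lists were called.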

How the data were processed

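Kidney RNA of female apoE knockout mice was sequenced as single-end reads. For the count and the normalized count tables alike, the study's methods state mapping to mm10 with STAR, whereas the submitters' processing notes name Trimmomatic 0.39, FastQC 0.11.8, Bowtie2 2.2.5, HTSeq 0.9.1 and DESeq2, so which aligner made the values is not settled. Annotation release and strand use are not given in the sources used here. Raw counts were deposited for Con and Ade mice. The normalized counts of Ade and Ade + IMC mice, a signal scaled by the authors with DESeq2 size factors, gave whole reads for 100% of positive values (tolerance 1e-06). A further table holds the authors' own comparison (fold changes and p-values) and gave gene names only.

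Ade was compared with Con by edgeR 4.0.16 (quasi-likelihood, TMM, filterByExpr), Ade + IMC with Ade by limma 3.58.1 (mean-variance trend) after a log2 transform of the normalized counts plus 1, for genes with a mean of at least 10, and Ade + IMC with Con by limma on log2 CPM (prior count 2) of counts and recovered reads, in R 4.3.3. P-values were adjusted by Benjamini-Hochberg over all genes tested, and genes were called at an adjusted p below 0.1. DESeq2 1.42.0, other scalings, filters and pseudocounts, a block and leaving out each mouse were alternatives. Scripts were tested on simulated data. Ratios within a mouse used exact permutation tests. All 46 genes are accounted for, genes below an unadjusted p of 0.05 with IMC are described singly, and of other lists the 2 called genes with the largest rise and fall are named, while 1 further list is not reported here. Members and lists were chosen with earlier results of these data known. Exon lengths are from GENCODE on GRCm38. Counts of 3 reads or fewer were taken as the floor of detection, for counting error alone. 4 control plus IMC mice were not analysed here.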

Additional observations from a re-analysis of the deposited data

Results flagged for a closer look

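Among 138 groups of values (46 genes in 3 groups of mice), 5 held a mouse whose gap to the nearest other mouse exceeded Dixon's 95% critical value, where chance would give about 6.9. Fn1 stood at 135 CPM in Con mouse 201 (others 60.7 to 77.7) and at 267 CPM in Ade + IMC mouse 412 (others 427 to 479). Fmod stood at 52.2 CPM in Ade + IMC mouse 311 (others 8.99 to 23.6). Lama1 stood at 22.9 CPM in Ade + IMC mouse 310 (others 14.2 to 17.3). Pcolce stood at 141 CPM in Con mouse 403 (others 105 to 112).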

How the results depend on the processing

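Across other tools, scalings, filters, the block and left-out mice, the number of the 46 genes called higher in Ade than in Con was between 31 and 35. Between Ade + IMC and Ade 0 of the 46 genes were called in any setting. No called result, and none of the 4 genes described singly with IMC, changed direction. With the leading digit as a block the difference between Ade + IMC and Ade changed sign in 3 of the 46 genes, each near 0 (Efemp1 -0.03 to 0.03, Lamc1 -0.02 to 0.01 and Nid2 -0.02 to 0.005). Calls of Fbln5, Ltbp1, Ltbp4, Vcan, Pcolce, Lama1, Lama4, Lamc1 and Nid2, and of the Bgn to Dcn ratio, depended on the setting, and the cause was not tested. The count of ratios past an adjusted p of 0.1 between Ade + IMC and Ade was between 0 and 4 when each mouse was left out, against 3 with all mice. The titles carry a second number that recurs across groups, of a meaning not stated, with 4 shared numbers in each comparison. Deviations from the group means of mice that share these digits correlated between -0.211 and 0.497. With 4 pairs in each comparison and no other pairs of mice for reference, this cannot decide whether the digits pair the mice. The main fits did not use them. A replicate block on these title digits, over the mice that share them, was added after seeing the data. It called 33 higher and 4 lower of the 46 genes in Ade against Con (34 and 3 with all mice and no block). Of the 46 genes it called 0 between Ade + IMC and Ade, and 32 higher and 2 lower in Ade + IMC against Con (35 and 4). Depth limited Ltbp2, Mfap5, Fbn2, Podnl1 and Hmmr in the Con mice, which had at most 12, 10, 4, 5 and 11 reads. In the Ade mice it limited Hapln1 (0.687 ± 0.674 CPM, SD).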
